A study of Mus musculus with 6 samples.

Results

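Primary hepatocytes lacking the innate immune adaptor STING by label, and their LOXP controls, were compared for 39 genes of the complement and coagulation systems, chosen by gene name from the 57180 genes of the deposited count table. The cells came from livers of male mice on a C57BL/6 background. LOXP libraries carried the floxed STING gene alone, and libraries labelled KO came from STINGLKO mice, in which Albumin-Cre, a recombinase driven in hepatocytes, was crossed onto the floxed allele. All 6 libraries, 3 for each genotype, shared culture in MEM alpha with dexamethasone and fetal bovine serum followed by 0.1 mM palmitic acid (PA) for 24 h, so no untreated cells enter the comparison. The mice are described for the study as a whole as young adults, while the labels give no age. The labels also do not give the number of animals behind each library, and p-values therefore measure the spread between these libraries, which may be technical.

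Complement is a cascade of plasma proteases in which a classical, a lectin and an alternative arm each build an enzyme that cleaves C3, after which C5 to C9 assemble into a pore called the membrane attack complex. Coagulation is a second protease cascade that starts at tissue factor or at the contact system and ends with thrombin cutting fibrinogen, while plasmin dissolves the clot. Hepatocytes make most of the circulating proteins of both systems, and several of them are acute-phase proteins.

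All 39 genes were present in the table and all passed the filter on low counts, so that the 14151 genes tested included every one of them. In the KO-labelled hepatocytes 31 of the 39 genes were lower, 1 was higher and 7 passed the test in neither direction, where a call means an adjusted p under 0.05 in edgeR's quasi-likelihood test over all genes tested. Of all genes tested, 11.6% were called lower and 11.5% were called higher, and among the 11102 genes with a mean above 1 FPKM in a group (FPKM counts fragments per kilobase of transcript, scaled to library size) these shares were 12.5% and 13.7%. The median log2 fold change (log2FC, KO-labelled minus LOXP) was -0.50 over the 39 genes and -0.002 over all genes tested. The estimate was below 0 for 36 of the 39, against 50.3% of all genes tested. Complement genes were called lower in 16 of 21 cases with 0 higher, and coagulation and fibrinolysis genes were lower in 15 of 18 with 1 higher.

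**Figure D1:**
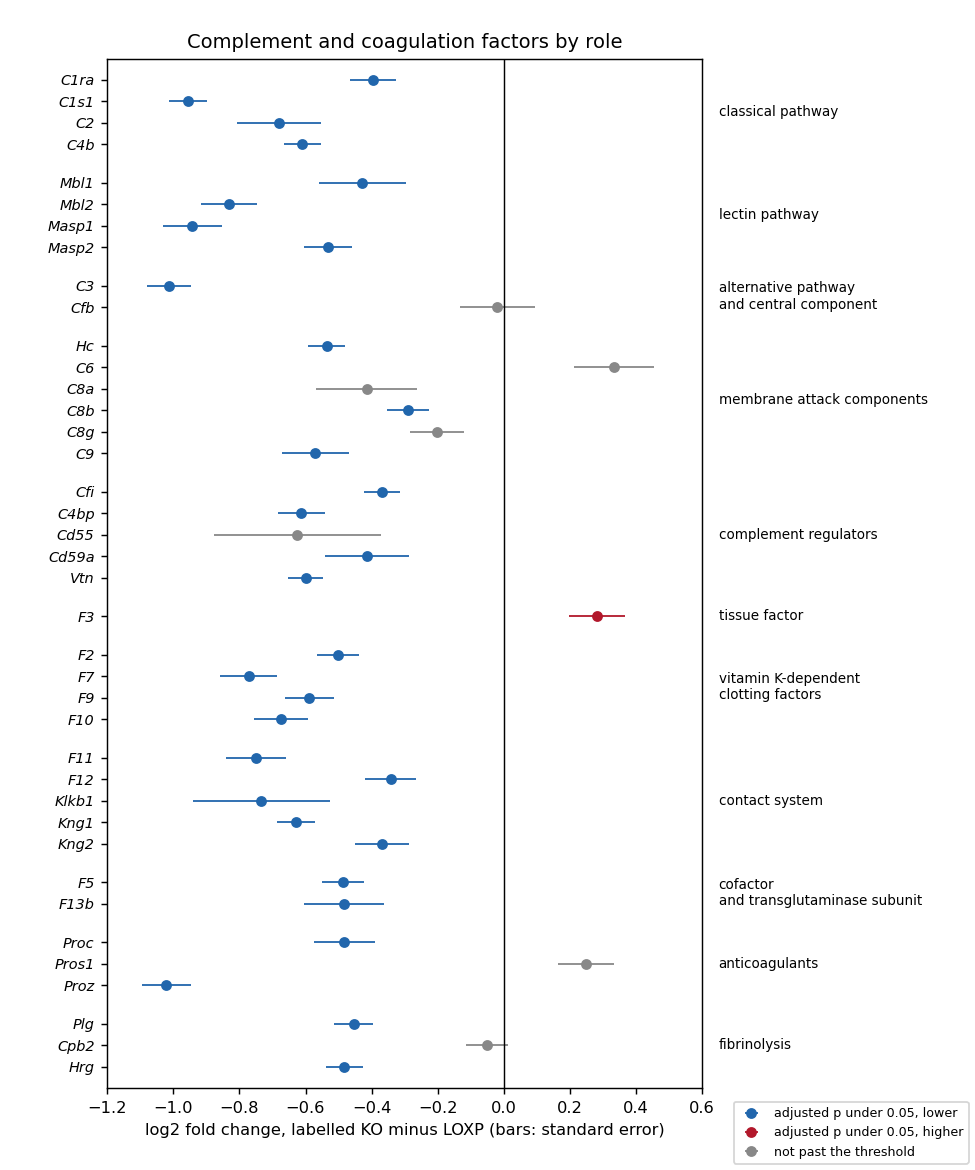
Log2 fold change of each of the 39 genes (horizontal axis, KO-labelled minus LOXP, bars are standard errors) ordered by role on the vertical axis. Blue points mark the 31 genes called lower, red the 1 called higher (F3) and grey the 7 not called. C3 and Proz lie furthest to the left and C6 furthest to the right.

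The changes were moderate in size. A differentially expressed gene in the study had to change more than 2-fold, pass the test and exceed a mean of 1 FPKM in either group, and these 3 criteria left 2 lower genes, *C3* and *Proz*, and 0 higher. These criteria called 1.49% of all genes tested lower and 0.558% higher. At the level of single libraries, 31 genes had every KO-labelled value under every LOXP value, against 20.3% of all genes tested, and 3 genes (*F3*, *C6* and *Pros1*) had every KO-labelled value above, against 20.4%. With 3 libraries against 3 the smallest two-sided p of an exact permutation test is 0.1, which 34 of the 39 genes reached. Without KO1 neither *C3* nor *Proz* met all 3 criteria, and without KO3 only 1 of them did. Of the 31 calls of lower expression, 25 held in all 15 alternative analyses.

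The targeted gene did not separate the groups. *Sting1*, listed on its own line, had 19, 16 and 23 counts in the LOXP libraries and 24, 23 and 15 in those labelled KO, with a log2 fold change of -0.08 (SE 0.298, adjusted p = 0.883). These counts show no loss of the transcript and, being low and summed over the whole gene, cannot show whether an exon was removed, so every direction given here is that of libraries labelled KO. The study assayed the transcript in such hepatocytes by RT-PCR as well, which was not analysed here. Libraries held 14726983 to 18536985 counted reads, the scaling factors ran from 0.973 to 1.023, mitochondrial genes took 3.86% to 4.65% of the counted reads, and the first principal component, which held 50.5% of the variance, separated the labels.

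Hepatocyte markers dominated the libraries, with *Alb* at a mean of 7106 FPKM, and they also moved. Among all genes tested 11.6% were called lower and 11.5% higher, the shares beside which each marker count here stands. Of the 20 hepatocyte markers 11 were lower and 2 higher, with a median log2 fold change of -0.34. Their summed level was 11954 to 12476 FPKM in LOXP against 10475 to 10572 FPKM in the KO-labelled libraries. Of 17 macrophage and Kupffer cell markers tested out of 18 listed, *Cd68* and *Mpeg1* were lower, none was higher and 15 were not called. The log2 fold change was below 0 for 9 of these 17, against 50.3% of all genes tested, with a median of -0.12. The 18 markers summed to 68.1 to 86.6 FPKM against 55.25 to 64.999 FPKM. The most abundant of them had a mean of 29.3 FPKM over the 6 libraries (4 of the 18 are also complement pathway or regulator genes listed further on). Cholangiocyte markers summed to 124 to 145 FPKM against 65.7 to 77.0 FPKM, with 3 of the 5 tested lower and 1 higher. Endothelial markers summed to 37.4 to 40.4 FPKM against 34.8 to 38.0 FPKM, with 1 of 15 tested lower (*Stab2*), and stellate markers to 11.5 to 14.0 FPKM against 13.7 to 14.5 FPKM, with 0 of 12 called. All 10 lymphocyte markers were at 0 counts, the 8 neutrophil markers held 51 counts in all with *Ly6g*, *Mpo* and *Retnlg* at 0, and of the 6 platelet markers 2 were tested and *Itga2b* was higher, with *Gp9* at 0. The part of these differences in the results for complement and coagulation genes was not tested, and in bulk RNA fewer cells of a type and less RNA per cell cannot be told apart.

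Promoter sequences are shown for *C3* and *Proz*, the 2 genes of lowest log2FC, for *F3*, the gene called higher, and for *F11* and *Hrg* as examples of a clotting and a fibrinolysis gene with a match, chosen after the matches were seen. RefSeq windows on GRCm38.p6, running from 250 bases before to 50 bases after the transcription start, were found for 31 of the 39 genes. Capitals mark letters that match the C/EBP motif TTGCNNAA on either strand, and lower case is the rest of the window.
*C3* (chr17:57228087-57228386, minus strand): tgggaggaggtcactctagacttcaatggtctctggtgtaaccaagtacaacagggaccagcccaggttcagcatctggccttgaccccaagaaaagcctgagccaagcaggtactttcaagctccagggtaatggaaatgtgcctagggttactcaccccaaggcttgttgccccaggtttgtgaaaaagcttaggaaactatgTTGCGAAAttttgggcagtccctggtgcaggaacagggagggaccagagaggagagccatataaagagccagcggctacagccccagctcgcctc
*Proz* (chr8:13060658-13060957, plus strand): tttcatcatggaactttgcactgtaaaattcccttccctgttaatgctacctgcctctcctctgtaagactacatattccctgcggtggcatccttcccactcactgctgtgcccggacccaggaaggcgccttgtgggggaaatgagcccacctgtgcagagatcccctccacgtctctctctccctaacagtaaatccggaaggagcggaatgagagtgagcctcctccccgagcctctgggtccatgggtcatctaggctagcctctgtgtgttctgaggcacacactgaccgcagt
*F11* (chr8:45261982-45262281, minus strand): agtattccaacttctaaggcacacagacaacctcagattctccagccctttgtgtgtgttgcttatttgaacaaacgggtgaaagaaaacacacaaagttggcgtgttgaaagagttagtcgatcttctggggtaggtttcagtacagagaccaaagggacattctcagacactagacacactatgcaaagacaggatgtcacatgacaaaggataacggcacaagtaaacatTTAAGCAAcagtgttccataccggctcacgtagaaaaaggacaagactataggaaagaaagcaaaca
*Hrg* (chr16:22950822-22951121, plus strand): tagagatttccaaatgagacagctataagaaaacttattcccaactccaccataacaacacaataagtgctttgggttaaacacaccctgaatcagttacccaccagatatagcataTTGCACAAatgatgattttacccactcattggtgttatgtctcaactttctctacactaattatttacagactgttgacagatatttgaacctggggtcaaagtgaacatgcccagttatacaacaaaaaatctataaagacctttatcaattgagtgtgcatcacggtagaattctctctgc
*F3* (chr3:121723287-121723586, plus strand): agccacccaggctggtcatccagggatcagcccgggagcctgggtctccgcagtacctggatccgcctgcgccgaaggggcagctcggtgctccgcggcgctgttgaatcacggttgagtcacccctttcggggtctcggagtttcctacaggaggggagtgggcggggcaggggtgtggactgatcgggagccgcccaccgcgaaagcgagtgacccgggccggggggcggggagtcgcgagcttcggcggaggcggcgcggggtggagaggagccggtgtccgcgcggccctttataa

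The matches in *C3*, *F11* and *Hrg* began 45, 17 and 133 bases before the start. The windows of *Proz*, with the lowest log2 fold change, and of *F3*, the gene called higher, held no match to any of the 6 motifs searched. C/EBP proteins are liver-enriched factors of the acute-phase response. Of the 24 lower genes with a window, 9 held TTGCNNAA (*C1ra*, *C1s1*, *C3*, *C9*, *F9*, *F11*, *Klkb1*, *Kng2* and *Hrg*), as did 1 of the 6 not called (*Cpb2*), against 12.2% of the 27025 genes in the table. The STAT motif TTCNNNGAA was in 4 of the 24 (*C1ra*, *Masp2*, *Vtn* and *F9*) and in 2 of the 6 not called (*C8a* and *Pros1*), against 9.55% of genes. The interferon-stimulated response element, TTTC and TTTC separated by any 2 bases, was in *Cd59a* and *Vtn*, against 3.99% of genes. The NF-kB motif, GGG and TTCC separated by any 3 bases (6.31% of genes), the HNF4A motif CAAAGTCCA (0.555%) and the HNF1 motif, GTTAAT and ATTAAC separated by any 1 base (0.011%), had no match in any of the 31 genes. The HNF4A and HNF1 strings are so rare that a lack of matches in 31 genes cannot show whether looser sites are present. All motifs were read on both strands, no matches of different motifs overlapped, and a match is a description of letters and not evidence of binding.

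The classical arm was lower in all 4 of its genes, and in each of them the highest KO-labelled library lay under the lowest LOXP library. Beside this and each later count by role stand the shares of all genes tested. Of these, 11.6% were called lower and 20.3% had every KO-labelled value under every LOXP value. *C1ra* and *C1s1* encode C1r and C1s, the proteases of the C1 complex, which are activated when its C1q subunit binds antibody. *C1s1* (ENSMUSG00000038521, chr6:124507304-124519318 on GRCm39) had 334, 367 and 339 counts scaled to library size (normalized CPM) in LOXP libraries 1, 2 and 3 and 176, 174 and 186 CPM in KO-labelled libraries 1, 2 and 3, a log2FC of -0.96 (SE 0.0583, adjusted p = 3.88e-05). *C1ra* was at 118, 133 and 125 CPM in LOXP against 90.3, 98.5 and 96.9 CPM, a smaller log2FC of -0.40 (SE 0.0686, adjusted p = 0.00471). Both proteases sit in the same complex, and the ratio of *C1s1* to *C1ra* FPKM was 1.61 ± 0.036 (SD, n = 3) in LOXP and 1.09 ± 0.059 in the KO-labelled libraries, without overlap. C1s then cleaves C4 and C2, whose fragments make the classical C3-cleaving enzyme. *C4b*, the most abundant gene of this arm at 169.9 ± 6.09 FPKM (SD, n = 3) in LOXP and 114 ± 5.75 FPKM in the KO-labelled libraries, had 1031, 1137 and 1088 CPM against 684, 706 and 744 CPM and showed a log2FC of -0.61 (SE 0.0552, adjusted p = 2.45e-04). *C2* had 33.95, 44.3 and 45.9 CPM in LOXP and 23.1, 27.5 and 26.8 CPM in the KO-labelled libraries, a log2FC of -0.68 (SE 0.126, adjusted p = 0.00645).

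Near-identical neighbours bear on these values. *C1rb*, *C1s2* and *C4a* are close copies of *C1ra*, *C1s1* and *C4b*, sharing 34.5%, 7.90% and 16.5% of the 100-base stretches of the longest annotated transcript, so reads could be split between them. Adding the counts of each copy gave log2 fold changes of -0.39, -0.96 and -0.61, which left the size of each change as it was to the first decimal. *C2* shares 53.2% of its stretches with *Gm20547*, a readthrough gene that spans *C2* and the adjacent *Cfb*. *Gm20547* held 2508, 1449 and 1532 counts in LOXP against 807, 686 and 33 in the KO-labelled libraries (log2 fold change -1.999, adjusted p = 0.0884), and with its counts added *C2* changed by -1.53 (adjusted p = 0.00795). The size of the *C2* change therefore depends on where these reads are assigned, while its direction did not.

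The lectin arm was also lower in all 4 genes without overlap between the groups. Mannose-binding lectins recognize sugars on microbial surfaces and carry the MASP proteases. *Mbl2*, which encodes mannose-binding lectin C and was the most abundant of these genes at 106 ± 10.1 FPKM in LOXP and 61.05 ± 2.35 FPKM in the KO-labelled libraries, had 103, 126 and 122 CPM against 64.9, 64.5 and 67.9 CPM, a log2FC of -0.83 (SE 0.0852, adjusted p = 4.10e-04). *Mbl1*, for mannose-binding lectin A, went from 11.04, 11.05 and 10.3 CPM to 7.90, 9.17 and 6.998 CPM, with a log2FC of -0.43 (SE 0.132, adjusted p = 0.0480). This call sat close to the threshold and held in 7 of the 15 alternatives, being lost when LOXP1, LOXP2, LOXP3, KO1 or KO3 was left out (adjusted p from 0.0865 to 0.142), in DESeq2 (0.106), with the low-count filter lifted (0.0860) and with a replicate block (0.0533). MASP-2 is the protease of this arm that cleaves C4 and C2, and MASP-1 activates it. *Masp1* had 78.1, 63.01 and 74.3 CPM in LOXP against 37.9, 36.6 and 37.5 CPM and the larger change of the pair, a log2FC of -0.94 (SE 0.0891, adjusted p = 2.92e-04). *Masp2* had 59.5, 60.8 and 66.4 CPM against 41.05, 43.5 and 44.4 CPM, with a log2FC of -0.53 (SE 0.0728, adjusted p = 0.00155). Both genes overlap others. *Masp1* overlaps *Rtp4* (log2 fold change -1.16, adjusted p = 0.00693), which held 13.7% as many counts as *Masp1*. *Masp2* overlaps *Tardbp* (0.10, adjusted p = 0.568), which held 192% as many counts as *Masp2*. The strand setting of the counting is not given in the sources used here, so reads in the shared bases cannot be assigned with certainty.

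The central component and the alternative arm differed from each other. *C3* (ENSMUSG00000024164, chr17:57510970-57535136 on GRCm39) encodes the protein on which all 3 arms converge and was the most abundant of the 39 genes, at 898 ± 64.5 FPKM in LOXP and 456 ± 14.4 FPKM in the KO-labelled libraries. Its libraries stood at 4745, 5628 and 5157 CPM in LOXP and 2471, 2642 and 2582 CPM in those labelled KO, which was 50.4% lower, with a log2FC of -1.01 (SE 0.0656, adjusted p = 5.02e-05). *C3* alone took 0.473% to 0.547% of all counted reads in the LOXP libraries and 0.250% to 0.264% in the KO-labelled ones. *Cfb* encodes factor B, the protease that joins C3b to form the alternative C3-cleaving enzyme. Its libraries stood at 498, 706 and 597 CPM in LOXP and 554, 600.3 and 622 CPM in those labelled KO, with overlapping groups and a log2FC of -0.02 (SE 0.113, adjusted p = 0.926), a sign that turned in 4 of the 15 alternatives. The ratio of *C3* to *Cfb* FPKM was 7.37 ± 0.66 (SD, n = 3) in LOXP and 3.67 ± 0.14 in the KO-labelled libraries, and every LOXP ratio exceeded every KO-labelled ratio. *Cfb* shares 81.0% of its 100-base stretches with *Gm20547*, and adding those counts moved its log2 fold change to -0.21 (SE 0.0755, adjusted p = 0.0798).

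**Figure D2:**
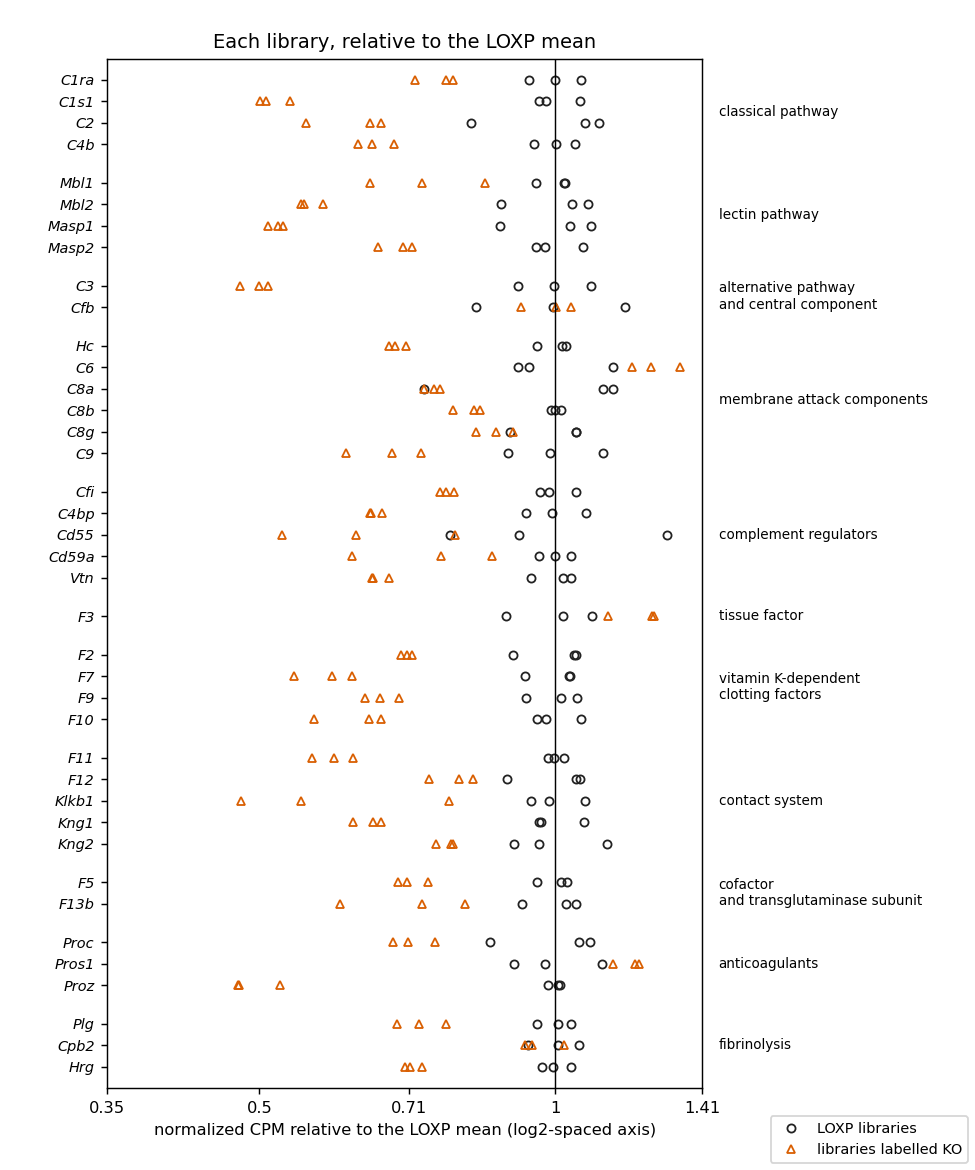
Normalized CPM of each gene in each library divided by the LOXP mean of that gene (horizontal axis, log2-spaced), with LOXP libraries as open circles, KO-labelled libraries as open triangles and genes ordered by role. Triangles lie left of all circles for 31 genes and right of all circles for F3, C6 and Pros1.

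Genes of the membrane attack complex were split, with 3 of 6 lower, each without overlap, and 3 not called. *Hc*, the gene for C5 and the most abundant of the 6, had 164, 163 and 154 CPM in LOXP and 113, 110.1 and 109 CPM in the KO-labelled libraries, a log2FC of -0.54 (SE 0.0562, adjusted p = 4.48e-04). C9 forms the wall of the pore. *C9* had 61.02, 48.9 and 53.9 CPM against 39.8, 33.4 and 37.2 CPM and showed a log2FC of -0.57 (SE 0.102, adjusted p = 0.00541). C8 is built from 3 chains of separate genes, of which *C8b* was called, with 64.2, 62.8 and 63.3 CPM against 49.97, 52.5 and 53.2 CPM and a log2FC of -0.29 (SE 0.0627, adjusted p = 0.0124). *C8a* had 56.2, 36.99 and 57.6 CPM against 36.97, 38.4 and 37.8 CPM, with LOXP2 lowest of its group and a log2FC of -0.42 (SE 0.152, adjusted p = 0.0855). *C8g* had 44.1, 51.4 and 51.5 CPM against 40.7, 44.4 and 42.7 CPM, with a log2FC of -0.20 (SE 0.0825, adjusted p = 0.117). *C8g* overlaps *Fbxw5*, which held 127% as many counts as *C8g* and had a log2 fold change of -0.06. *C6*, which joins C5b at the start of assembly, was the only complement gene with an estimate above 0. Its values of 12.7, 10.2 and 10.5 CPM in LOXP and 14.9, 13.3 and 13.9 CPM in the KO-labelled libraries did not overlap, but a log2FC of 0.33 (SE 0.120, adjusted p = 0.0814) missed the threshold.

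Calls among these 3 uncalled genes turned on single LOXP libraries. Without LOXP2 *C8a* was called lower (log2 fold change -0.59, adjusted p = 0.00172), as it was in DESeq2 (adjusted p = 0.0402), and without LOXP1 *C6* was called higher (0.44, adjusted p = 0.0316) and *C8g* lower (-0.27, adjusted p = 0.0345). The ratio of *Hc* to *C6* FPKM was 8.89 ± 0.94 (SD, n = 3) in LOXP and 4.83 ± 0.21 in the KO-labelled libraries. Among the C8 chains, *C8b* to *C8a* was 2.65 ± 0.67 against 2.77 ± 0.055, and *C8g* to *C8a* was 2.18 ± 0.69 against 2.41 ± 0.058, with overlapping values.

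Complement regulators were lower in 4 of 5 cases, each without overlap between the groups. *Vtn* encodes vitronectin, a plasma protein that binds the forming attack complex and also stabilizes the plasminogen activator inhibitor PAI-1. It was the most abundant regulator, at 221 ± 9.49 FPKM in LOXP and 149 ± 1.98 FPKM in the KO-labelled libraries, with 717, 774 and 787 CPM against 495, 514 and 494 CPM and a log2FC of -0.60 (SE 0.0520, adjusted p = 1.99e-04). Factor I cuts C3b and C4b, and C4b-binding protein is its cofactor on C4b. *C4bp* had 113, 97.8 and 104 CPM against 67.9, 69.8 and 68.1 CPM, with a log2FC of -0.61 (SE 0.0699, adjusted p = 6.78e-04). *Cfi*, next to *Vtn* in level, had 215, 198 and 202 CPM against 162, 159 and 157 CPM, with a log2FC of -0.37 (SE 0.0548, adjusted p = 0.00233). The other 2 genes encode membrane-anchored regulators and were low. *Cd59a*, which blocks the entry of C9, had 18.05, 18.7 and 17.4 CPM in LOXP and 11.2, 13.8 and 15.6 CPM in the KO-labelled libraries, with a log2FC of -0.41 (SE 0.127, adjusted p = 0.0479), a call that held in 5 of the 15 alternatives. It was lost without LOXP1, LOXP2, LOXP3, KO1 or KO2 (adjusted p from 0.0855 to 0.120), in DESeq2 (0.0606), with the low-count filter lifted (0.0858), with a replicate block (0.0592) and in both limma-trend fits on FPKM (0.0676 and 0.0663). Its paralog *Cd59b* rose, with a log2 fold change of 1.06 (adjusted p = 0.0177), from 42, 23 and 35 counts to 90, 71 and 72, and the summed counts of the pair changed by -0.16 (adjusted p = 0.255). *Cd55*, the decay-accelerating factor and the gene of lowest level here, had 3.03, 5.04 and 3.56 CPM against 3.06, 2.43 and 2.04 CPM, overlapping, with a log2FC of -0.62 (SE 0.253, adjusted p = 0.113).

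Tissue factor was the exception to the direction of the clotting genes. *F3* (ENSMUSG00000028128, chr3:121517186-121528697 on GRCm39) encodes this membrane receptor for factor VII and starts the extrinsic pathway. Its level was 37.02 ± 4.22 FPKM in LOXP and 46.1 ± 2.38 FPKM in the KO-labelled libraries. The LOXP libraries had 138, 112 and 128 CPM and the KO-labelled libraries 159, 158 and 143 CPM, without overlap, with a log2FC of 0.28 (SE 0.0844, adjusted p = 0.0440). This call was near the threshold and did not hold in 6 of the 15 alternatives: when the low-count filter was lifted, or without LOXP2, LOXP3, KO1, KO2 or KO3, where the log2 fold change lay between 0.21 and 0.33 and the adjusted p reached 0.139.

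The 4 genes grouped here as vitamin K-dependent clotting factors, proteases that bind membranes through carboxylated glutamates, were all lower with no overlap. This group leaves out the 3 anticoagulant genes given below, of which 2 were lower and *Pros1*, with a log2FC of 0.25, was not called. *F7*, whose protein pairs with tissue factor, had 34.3, 38.2 and 38.1 CPM in LOXP and 21.9, 22.9 and 20.002 CPM in the KO-labelled libraries and the largest change of the 4, a log2FC of -0.77 (SE 0.0856, adjusted p = 5.94e-04). The ratio of *F7* to *F3* FPKM was 0.534 ± 0.081 (SD, n = 3) against 0.255 ± 0.0065. Factors IX and X follow in the cascade. *F9* had 50.04, 51.96 and 46.1 CPM against 34.2, 31.6 and 32.7 CPM, with a log2FC of -0.59 (SE 0.0744, adjusted p = 0.00111). *F10* had 75.3, 83.4 and 76.9 CPM against 44.6, 52.2 and 50.8 CPM, with a log2FC of -0.67 (SE 0.0817, adjusted p = 8.97e-04). *F2* encodes prothrombin, the zymogen of thrombin, and was the most abundant of the 4 at 128 ± 9.30 FPKM in LOXP and 92.6 ± 1.15 FPKM in the KO-labelled libraries. It had 648, 750.1 and 748 CPM against 512, 505 and 499 CPM, with a log2FC of -0.50 (SE 0.0638, adjusted p = 0.00114).

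All 5 contact-system genes were lower, again without overlap. Factor XII and plasma prekallikrein activate each other on charged surfaces, factor XI passes the signal to factor IX, and kininogens are the carriers from which bradykinin is cut. *F12* and *Kng1* were the most abundant and close in level, with *F12* at 129.7 ± 11.1 FPKM in LOXP and 105 ± 5.12 FPKM in the KO-labelled libraries and *Kng1* at 139.6 ± 9.97 FPKM and 92.5 ± 2.17 FPKM (SD, n = 3), so that their order differed between the groups. *F12* had 262, 308 and 311 CPM against 219, 242 and 234 CPM, a log2FC of -0.34 (SE 0.0770, adjusted p = 0.0150) that missed the threshold without LOXP3 (adjusted p = 0.0539) or KO1 (0.0614). *F11* fell further, from 19.4, 18.9 and 18.6 CPM to 11.3, 11.8 and 10.7 CPM, with a log2FC of -0.75 (SE 0.0916, adjusted p = 9.21e-04). *Klkb1*, for prekallikrein, was the lowest in level, with only 5.17, 5.87 and 5.40 CPM against 4.27, 3.02 and 2.62 CPM and a wide error, a log2FC of -0.73 (SE 0.206, adjusted p = 0.0349). Leaving out any library but KO1 ended that call, with adjusted p from 0.0573 to 0.115, as did lifting the low-count filter (0.0586) and a replicate block (0.0510). Adding the counts of *Gm45753*, which shares 42.1% of the 100-base stretches of *Klkb1*, gave a log2FC of -0.71 (adjusted p = 0.0157). The kininogen gene *Kng1* had 695, 625 and 628 CPM in LOXP and 424, 432 and 404 CPM in the KO-labelled libraries, with a log2FC of -0.63 (SE 0.0579, adjusted p = 2.55e-04). Its neighbor *Kng2*, a second kininogen gene, had 169, 179 and 209.8 CPM against 140.3, 146 and 145 CPM, with a log2FC of -0.37 (SE 0.0825, adjusted p = 0.0147), and without KO1 the adjusted p was 0.0562. The pseudogene *Gm6493* overlaps *Kng2*, with 9.41% as many counts and a log2 fold change of 0.11 (adjusted p = 0.492). *Kng1* shares 5.80% of its 100-base stretches with *Kng2*, and no counts were added for either kininogen gene. The ratio of *Kng1* to *Kng2* FPKM was 3.85 ± 0.61 in LOXP and 3.18 ± 0.13 in the KO-labelled libraries (SD, n = 3), with overlapping values.

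Activated factor V is the cofactor of activated factor X, and factor XIII cross-links fibrin. *F5* had 97.1, 98.4 and 91.7 CPM in LOXP and 71.1, 67.6 and 66.1 CPM in the KO-labelled libraries, with a log2FC of -0.49 (SE 0.0640, adjusted p = 0.00129), and was the more abundant of the pair at 12.7 ± 0.427 FPKM against 9.29 ± 0.332 FPKM. *F13b*, for the carrier subunit of factor XIII, had 22.9, 22.4 and 20.2 CPM against 13.2, 15.97 and 17.7 CPM, with a log2FC of -0.48 (SE 0.121, adjusted p = 0.0227), a call that was lost without LOXP1, LOXP2, KO1 or KO2 (adjusted p from 0.0560 to 0.0650). Neither gene overlapped between the groups.

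Anticoagulant genes did not move as a block. *Proz* (ENSMUSG00000031445, chr8:13110914-13126026 on GRCm39) encodes protein Z, the cofactor through which a serpin inhibits factor Xa, and had the lowest log2 fold change of the 39 genes. Its libraries stood at 42.2, 42.1 and 41.1 CPM in LOXP and at 19.9, 21.9 and 19.9 CPM in those labelled KO, with a log2FC of -1.02 (SE 0.0742, adjusted p = 8.34e-05), at a level of 5.71 ± 0.106 FPKM against 2.88 ± 0.134 FPKM. Protein C inactivates factors V and VIII with protein S as its cofactor. *Proc*, the most abundant anticoagulant gene at 35.6 ± 4.05 FPKM in LOXP and 26.1 ± 1.13 FPKM in the KO-labelled libraries, had 130.1, 164 and 160.5 CPM against 104, 114 and 107 CPM, with a log2FC of -0.48 (SE 0.0935, adjusted p = 0.00792). *Pros1*, for protein S, went the other way in its estimate, with 75.2, 61.1 and 65.6 CPM against 81.97, 81.1 and 77.1 CPM and no overlap, but a log2FC of 0.25 (SE 0.0854, adjusted p = 0.0685) missed the threshold. It was called higher in DESeq2 (adjusted p = 0.0417) and without LOXP1 (log2 fold change 0.33, adjusted p = 0.0159). The ratio of *Proc* to *Pros1* FPKM was 2.50 ± 0.54 (SD, n = 3) in LOXP and 1.48 ± 0.087 in the KO-labelled libraries.

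Fibrinolysis held 2 lower genes, neither of which overlapped between the groups, and 1 that was not called. *Plg* encodes plasminogen, the zymogen of plasmin, and had 376, 407 and 395 CPM in LOXP and 271, 304 and 285 CPM in the KO-labelled libraries, with a log2FC of -0.45 (SE 0.0591, adjusted p = 0.00125). *Hrg*, for histidine-rich glycoprotein, which binds plasminogen and heparin, had 146, 136 and 139.9 CPM against 103, 98.9 and 100.1 CPM, with a log2FC of -0.48 (SE 0.0567, adjusted p = 7.78e-04). *Cpb2* encodes the carboxypeptidase TAFI, which trims the fibrin lysines to which plasminogen binds. It was the most abundant of the 3, at 122 ± 6.24 FPKM in LOXP and 121 ± 4.92 FPKM in the KO-labelled libraries, and its values of 254, 267 and 237 CPM and 235, 257 and 239 CPM overlapped, with a log2FC of -0.05 (SE 0.0633, adjusted p = 0.619). The ratio of *Plg* to *Cpb2* FPKM was 0.813 ± 0.050 (SD, n = 3) against 0.614 ± 0.010.

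**Figure D3:**
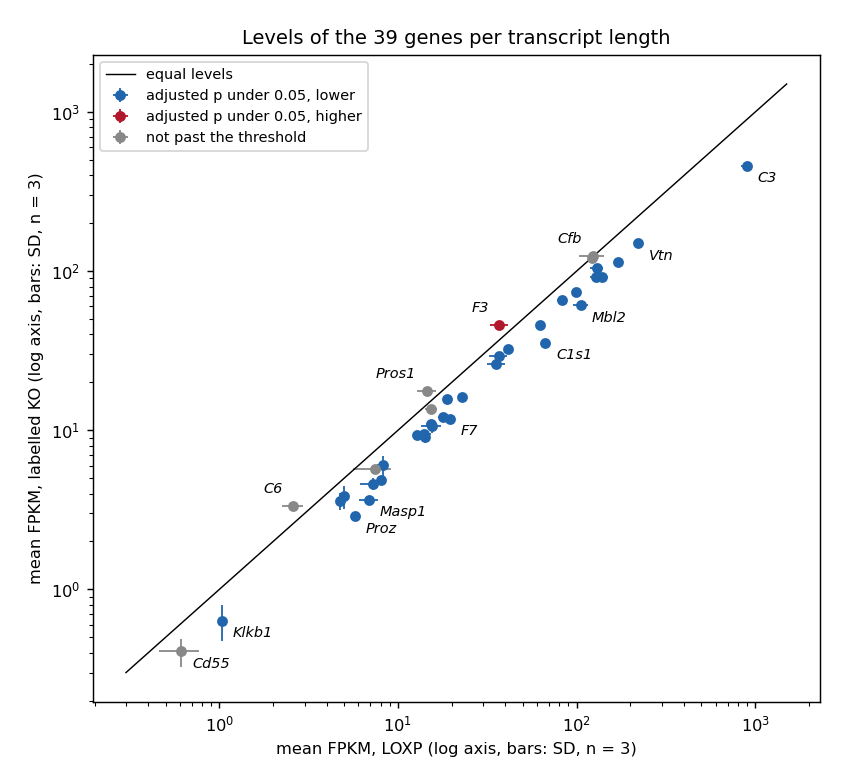
Mean FPKM in the KO-labelled libraries (vertical, log axis) against mean FPKM in LOXP (horizontal, log axis), with bars for the SD of 3 libraries and a line at equal levels. The 31 blue points lie below the line, F3 above it and Cfb close to it, over levels from 0.407 FPKM (Cd55, KO-labelled) to 898 FPKM (C3, LOXP).

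The 10 ratios given between pairs of genes were compared by a two-sided exact permutation test. Of these, 6 had no overlap and the smallest p that 3 against 3 libraries allow, 0.1 (adjusted p = 0.167 over the 10), namely *C3* to *Cfb*, *C1s1* to *C1ra*, *F7* to *F3*, *Proc* to *Pros1*, *Plg* to *Cpb2* and *Hc* to *C6*. *Kng1* to *Kng2*, and *Mbl2* to *Mbl1* at 22.5 ± 2.8 against 17.2 ± 2.8 (SD, n = 3), had an exact p of 0.2. *C8g* to *C8a* and *C8b* to *C8a* had an exact p of 0.6 and 1. The pairs were picked with earlier results of these data known. *C3* to *Cfb*, *F7* to *F3*, *Proc* to *Pros1*, *Plg* to *Cpb2* and *Hc* to *C6* each set a gene called lower against a gene that was not. Their separation was therefore largely set by that choice, and the permutation test adds no support to the calls. No share over other pairs of genes was computed.

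The genes differed widely in level. Mean FPKM over the 6 libraries ran from 0.510 (*Cd55*) to 677 (*C3*), with 28 genes above 10 FPKM and 8 above 100 FPKM. The median coefficient of variation over the 39 genes was 6.11% in LOXP and 4.26% in the KO-labelled libraries. The largest was 26.9% in LOXP (*Cd55*) and 26.0% in the KO-labelled libraries (*Klkb1*), and *C8a* reached 22.9% in LOXP. Across the 39 genes, Spearman's rho between mean FPKM and log2 fold change was 0.15, a description over genes that share the same 6 libraries. Together the 39 genes took 1.17% to 1.27% of counted reads in the LOXP libraries and 0.774% to 0.807% in the KO-labelled ones, and without *C3* 0.695% to 0.727% against 0.524% to 0.543%.

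**Figure D4:**
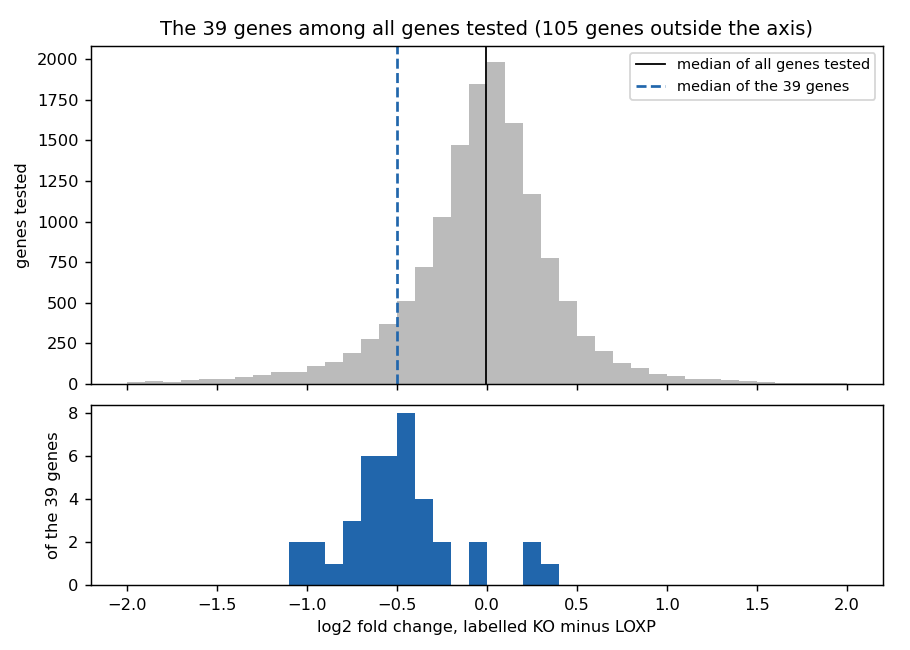
Number of genes (vertical axes) by log2 fold change, KO-labelled minus LOXP, in bins of 0.1, for all genes tested (grey, upper panel) and for the 39 genes (blue, lower panel), with both medians as vertical lines and 105 genes outside the axis. All tested genes center near 0, and the 39 genes center near -0.50.

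Several of the genes lie side by side. In all, 8 pairs of neighbors were within 100000 bases of each other on GRCm39: *Hrg*, *Kng2* and *Kng1* on chromosome 16, *Cfb* and *C2* on chromosome 17, *C8b* and *C8a* on chromosome 4, *C1ra* and *C1s1* on chromosome 6, and *F7*, *F10* and *Proz* as well as *F11* and *Klkb1* on chromosome 8. Some neighbors had like log2 fold changes and others did not. *F11* stood at -0.75 beside *Klkb1* at -0.73, and *Hrg*, *Kng2* and *Kng1*, all called lower, at -0.48, -0.37 and -0.63. *C1ra* was at -0.40 beside *C1s1* at -0.96, and *C8b* at -0.29 beside *C8a* at -0.42, which was not called. *Proz* stood at -1.02 beside *F10* at -0.67 and *F7* at -0.77, and *Cfb* at -0.02 beside *C2* at -0.68 with a gap of 85 bases.

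Of 61 other complement, coagulation and fibrinolysis genes, 44 were tested, of which 16 were lower, 4 higher and 24 not called, against the 11.6% and 11.5% of all genes tested, with a median log2 fold change of -0.25. All 3 fibrinogen chains, which together form the substrate of thrombin, were lower without overlap. *Fga* had 118, 112 and 121 FPKM in LOXP and 67.6, 58.98 and 62.8 FPKM in the KO-labelled libraries, with a log2FC of -0.93 (SE 0.0596, adjusted p = 4.95e-05). *Fgg* had 158, 153 and 157 FPKM against 102, 91.4 and 93.6 FPKM, with a log2FC of -0.74 (SE 0.0550, adjusted p = 8.81e-05), and *Fgb* had 216, 217 and 231 FPKM against 162, 142 and 148 FPKM, with a log2FC of -0.59 (SE 0.0597, adjusted p = 3.84e-04). *Fgl1*, a fibrinogen-like protein secreted by hepatocytes, had a log2FC of -0.77 (SE 0.0458, adjusted p = 3.60e-05). *Clu*, for clusterin, a soluble inhibitor of the attack complex, had a log2FC of -0.90 (SE 0.0728, adjusted p = 1.41e-04). *Plaur*, the urokinase receptor, was higher, with a log2FC of 1.05 (SE 0.0787, adjusted p = 8.81e-05). *C7*, *Cd55b*, *Cr2*, *Fcnb*, *F2rl2* and *Bdkrb1* had 0 counts in every library.

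Regulators of hepatocyte and acute-phase transcription were lower in 11 of 37 tested genes and higher in 1, *Foxa1*. Of all genes tested, 11.6% were lower and 11.5% higher. The median log2 fold change of the regulators was -0.27. *Hnf4a* and *Prox1*, factors of hepatocyte identity, had a log2FC of -0.59 (SE 0.0582, adjusted p = 3.38e-04) and a log2FC of -0.67 (SE 0.0895, adjusted p = 0.00139). *Irf9*, which carries interferon signals to the nucleus, had a log2FC of -0.70 (SE 0.0756, adjusted p = 5.12e-04). *Nr1h4*, the bile acid receptor, had a log2FC of -0.54 (SE 0.110, adjusted p = 0.00939), and *Jak2*, a kinase of cytokine receptors, had a log2FC of -0.34 (SE 0.0718, adjusted p = 0.0109). Of the C/EBP genes, given here because of the motif above and chosen after their values were seen, *Cebpa* had a log2FC of 0.27 (adjusted p = 0.0856) and *Cebpb* a log2FC of 0.12 (adjusted p = 0.668), and *Cebpd* had a log2FC of -0.69 (adjusted p = 0.182).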

How the data were processed

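RNA from 3 LOXP and 3 KO-labelled hepatocyte cultures was sequenced after VAHTS Universal V6 library preparation. Per the labels, the authors used fastp, HISAT2, StringTie and edgeR with the GRCm39 build. Their versions, the annotation and the strand setting are not given in the sources used here. The deposited table held raw counts per gene, and FPKM (fragments per kilobase of transcript, scaled to library size) as the authors computed it. No value column was left unmapped.

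Counts of all 57180 genes were read into edgeR 4.0.16 (R 4.3.3), filtered with filterByExpr (minimum count 10, leaving 14151 genes), scaled by TMM and tested two-sided with the quasi-likelihood test and Benjamini-Hochberg adjustment over all genes tested. The 39 genes were read from that fit. SE was derived from the fold change and its F statistic. FPKM served for levels and ratios between genes. Libraries held 14726983 to 18536985 counted reads, and *Cd55* and *Klkb1*, the genes of lowest counts, have the widest errors. Replicates differed by more than sampling noise (chi-square divided by its degrees of freedom lay between 7.77 and 16.7), and the biological coefficient of variation was 0.118.

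Alternatives were DESeq2 1.42.0, upper-quartile scaling, lifting the low-count filter (1 count or more over all libraries), raising it to 10 counts in each library, edgeR's likelihood ratio and exact tests, a replicate block, limma 3.58.1 with trend on log2(FPKM + 1) and log2(FPKM + 0.1), and leaving out each library. Adding near-identical or readthrough genes was chosen after seeing the data. The scripts were tested on simulated data.

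The 39 genes, role groups, gene lists and ratios were chosen with earlier results of these data known. Genes called, and the most abundant of each role group, are given with every library, and the uncalled ones were added so that each is accounted for. Of other lists, at most 6 genes of smallest adjusted p were named, with the fibrinogen chains, and 2 of the genes so chosen are not reported here. Overlapping 100-base stretches were counted in GENCODE vM21 transcripts. Promoters came from the RefSeq table of GRCm38.p6 (31 of 39 genes matched), whose coordinates were not mixed with those of GRCm39.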

Additional observations from a re-analysis of the deposited data

How the results depend on the processing

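Of the 39 genes, 38 kept their direction in all 15 alternatives. The exception was *Cfb*, whose log2 fold change was 0.0290 and 0.0293 with limma-trend at a pseudocount of 1 and of 0.1, and ran from -0.14 to 0.11 when each library was left out, above 0 without LOXP2 or KO1. The count of lower genes ran from 26 to 31, and 25 of the 31 calls held throughout. The count of higher genes was 2 in DESeq2, 0 with the low-count filter lifted, and 0 to 3 when each library was left out in turn. Both lower genes that met the 3 criteria missed the fold limit with limma-trend at both pseudocounts (0 left; the cause was not tested), and 0 to 2 remained when a library was left out. The median log2 fold change was -0.43 on log2(FPKM + 1) and -0.46 on log2(FPKM + 0.1), and between -0.49 and -0.52 elsewhere. DESeq2 gave no adjusted p for 10202 of 25004 genes. A replicate block left 28 genes lower, since *Mbl1* (adjusted p = 0.0533), *Cd59a* (0.0592) and *Klkb1* (0.0510) missed the threshold, changed no other call among the 39, and gave a median of -0.50. Same-numbered libraries deviated together only weakly, with r of 0.120, 0.0834 and 0.0134. Each KO-labelled library correlated best with the LOXP library of its own number, while LOXP3 correlated best with KO2 (0.0459). Values this small do not settle whether the numbers mark pairs. With near-identical or readthrough genes added, *Cd59a* lost its call (-0.16, adjusted p = 0.255) and *C2* moved to -1.53, and the other 6 genes kept direction and side of the threshold, *Klkb1* at -0.71 (adjusted p = 0.0157).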
